A study of Mus musculus with 4 samples.

Results

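The genes described here are the clustered replication-dependent histone genes, which make the bulk of the histone protein laid down on newly copied DNA. They were taken as every gene whose symbol in the deposited tables begins with Hist1h, Hist2h, Hist3h or Hist4h and that had at least 1 UMI (unique molecular identifier, the tag that marks a captured RNA molecule). Of 69 such rows among 27998 listed genes, 66 had a UMI: 6 for the linker histone H1, 18 for H2A, 17 for H2B, 12 for H3 and 13 for H4. The 3 rows without a UMI were Hist2h2aa2, Hist1h2br and Hist1h2ba. Between 63 and 65 members were seen in each library. Hist2h2bb stands in 2 rows with different gene identifiers, of which the lower one is a noncoding gene model, and Hist1h2al is annotated as a pseudogene.

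DNA is wound around nucleosome cores built from H2A, H2B, H3 and H4, and H1 binds where the strand enters and leaves the core. The clustered genes are switched on as a group when DNA is copied, by a factor called NPAT, and their RNAs are known for ending in a short stem-loop, bound by SLBP, in place of a poly(A) tail. Replacement histones such as H2afz, H2afx, H3f3a and H3f3b are made outside replication as well, from ordinary polyadenylated RNA. Because the libraries were primed on A-rich sequence, they hold only those histone RNAs that carried a poly(A) tail or another A-rich stretch.

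The cells were LSK cells (Lin-Sca1+cKit+), the marrow fraction that holds stem cells and multipotent progenitors, profiled on the 10x 3′ platform. There were 2 control and 2 Nup358 knockout (KO) libraries, each from the pooled marrow of 3 mice aged 9 to 12 weeks. Control mice were Nup358 fl/fl (called wild-type in the labels), KO mice Nup358 fl/fl CreERT2, and both received tamoxifen on 3 consecutive days. The Cre recombinase is expressed from the R26 locus in all tissues and was absent from controls, so the effects of Cre and of the deletion cannot be told apart. The p-values of KO against control measure the spread between pooled libraries. Cycling states, progenitor types and the interaction were fitted with library as a block. Their p-values measure how differences within a library vary from library to library.

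Ranbp2, the gene that encodes Nup358, was at 127, 101, 124 and 126 CPM (UMIs per 1000000 UMIs of the summed cells) in control 1, control 2, KO 1 and KO 2. Its 3′ end lies outside the deleted exon, so this level does not check the labels. Between libraries 6680 barcode sequences were shared. Of 25242 deposited barcodes, 10936 (43.3%) had a sequence that held at least 3 times the UMIs in another library. They are called copied here, although the RNA of such barcodes was not compared. Copied barcodes made up 81.8% of those in control 2 and 65.3% in KO 1. After these were left out, 7830, 1200, 1589 and 3422 cells remained, with a median of 6251, 13176, 17707 and 14399 UMIs. Both sort markers, Kit and Ly6a, were detected in every library. Marker lists of other cells differed between libraries: summed monocyte markers lay at 392 and 227 CPM in controls and 142 and 71.5 CPM in KO, and mature erythroid markers at 1351 CPM in control 2 and 127 to 224 CPM elsewhere. Basophil and mast cell markers lay at 28.1 and 19.6 CPM in controls and 74.7 and 163 CPM in KO, and plasma cell markers at 119 and 262 CPM against 586 and 385 CPM. The part of these cells in the histone levels was not tested.

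The libraries count RNA near 3′ ends, so the stem-loop sites of 8 members are shown first. They come from the GENCODE vM21 models of the same genome build as the deposited tables (GRCm38). Whether these sites set the captured levels was not tested. Lower case gives 12 bases before the loop and 2 after it, 5′ to 3′ on the gene's strand, and the 16 capitals are the stem-loop. Loops were found by a search for the fixed letters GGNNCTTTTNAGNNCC (N for any base), so every site shares them. A loop that departs from these letters was not counted.
Hist1h2ap: aaaaaaaaaaaaGGCTCTTTTCAGAGCCat
Hist1h2ao: aaaaaaaaaaaaGGCTCTTTTCAGAGCCat
Hist1h2ae: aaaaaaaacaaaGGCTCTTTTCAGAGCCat
Hist1h2ab: aaccaaaacaaaGGCTCTTTTCAGAGCCac
Hist1h1c: aacaatccaaaaGGCTCTTTTCAGAGCCac
Hist1h2bj: accaaatccaaaGGCTCTTTTCAGAGCCac
Hist1h3e: gtaaaccaaaacGGCTCTTTTAAGAGCCac
Hist1h4i: atgctacttaaaGGCCCTTTTTAGGGCCac
The loops lie in the 3′ UTR, that of Hist1h2ap at chr13:21833029-21833044 on the minus strand, of Hist1h2ae at chr13:23570668-23570683 on the minus strand and of Hist1h1c at chr13:23739512-23739527 on the plus strand. Hist1h2ap and Hist1h2ae, shown first for their run of A before the loop, hold the highest levels of all members. Hist1h2ao has the same 30 letters as Hist1h2ap.

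The motif stood in 44 of the 69 members, always in the 3′ UTR, and in 28 of 21834 other protein-coding genes (0.128%). A further 11 member models stop at the end of the coding sequence and cannot show it. The AATAAA signal, which in most genes directs the addition of a poly(A) tail, lay within the last 50 bases of a model in 15 members and in 65.8% of other protein-coding genes. Among the 15 were Hist1h1c, Hist1h2ae, Hist1h2be, Hist2h2be, Hist3h2a, Hist3h2ba and Hist4h4. Hist1h2bc has neither in its model, which spans chr13:23684199-23692908 on the plus strand.

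Member RNA was dominated by H2A, and within H2A by Hist1h2ap, a core H2A gene. It gave 154692 UMIs, 43.2% of all member UMIs, at 1609, 712, 755 and 401 CPM in control 1, control 2, KO 1 and KO 2. Control 1 was the high library and KO 2 the low one, and the groups overlapped. Hist1h2ae, the H2A gene next in level, stood at 396, 364, 230 and 175 CPM, both controls above both KO libraries. These are counts at 3′ ends, not scaled by gene length. Levels of different members are read here as captured RNA, not as total histone RNA. Some members named with a call or a sequence share 60-base windows of their last 300 bases with another gene. Hist1h2ap, Hist2h2aa1, Hist1h3e, Hist1h3f and Hist1h1e share every window, and Hist1h2ao shares 88.4% of them. Others share part, such as Hist1h2an (79.7%), Hist1h2ab (68.9%), Hist1h2bj (66.4%) and Hist1h4h (62.2%). Hist1h1b, Hist1h1c and Hist1h2bc share none. The Hist1h1e model also overlaps that of Hist1h2be on the same strand. How reads were divided between such copies is uncertain.

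The linker histone genes followed. Hist1h1b was at 293, 162, 295 and 244 CPM, Hist1h1e at 112, 82.9, 111 and 91.9 CPM, and Hist1h1c at 69.9, 72.0, 38.0 and 36.6 CPM. The first of these overlapped between the groups, as did Hist1h1e, whereas both Hist1h1c values in KO lay below both in controls. Hist1h1t, known as the testis H1, was close to absent with 13 UMIs in all.

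Among the other core histone genes, Hist1h4i led H4 at 68.0, 57.6, 64.8 and 80.5 CPM, followed by Hist1h4d (mean 37.1 CPM) and Hist1h4h (20.5 CPM). Hist1h2bc led H2B at 38.7, 68.1, 17.9 and 18.9 CPM, followed by Hist1h2bj (18.4 CPM) and Hist2h2bb (10.1 CPM). H3 members were lower, led by Hist1h3e (23.1 ± 4.65 CPM, SD over 4 libraries), Hist1h3c (18.0 ± 1.05 CPM) and Hist1h3a (13.4 ± 1.38 CPM). Hist2h2ac, the H2A gene after Hist1h2ae, had a mean of only 29.0 CPM. At the low end of the types whose stem-loops are printed were Hist1h2aa and Hist1h2bq with 1 UMI each, Hist1h3h with 33 and Hist1h4m with 58. Of these, Hist1h2bq and Hist1h4m share every 60-base window with another gene, Hist1h3h shares 90.9% and Hist1h2aa none. In this order of levels, the neighbours Hist1h1c (54.1 ± 19.5 CPM, SD over 4 libraries) and Hist1h1a (48.2 ± 10.1 CPM) differed by less than either SD. Hist1h3e and Hist1h3c differed by more than either SD, although their values overlapped over libraries.

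**Figure D1:**
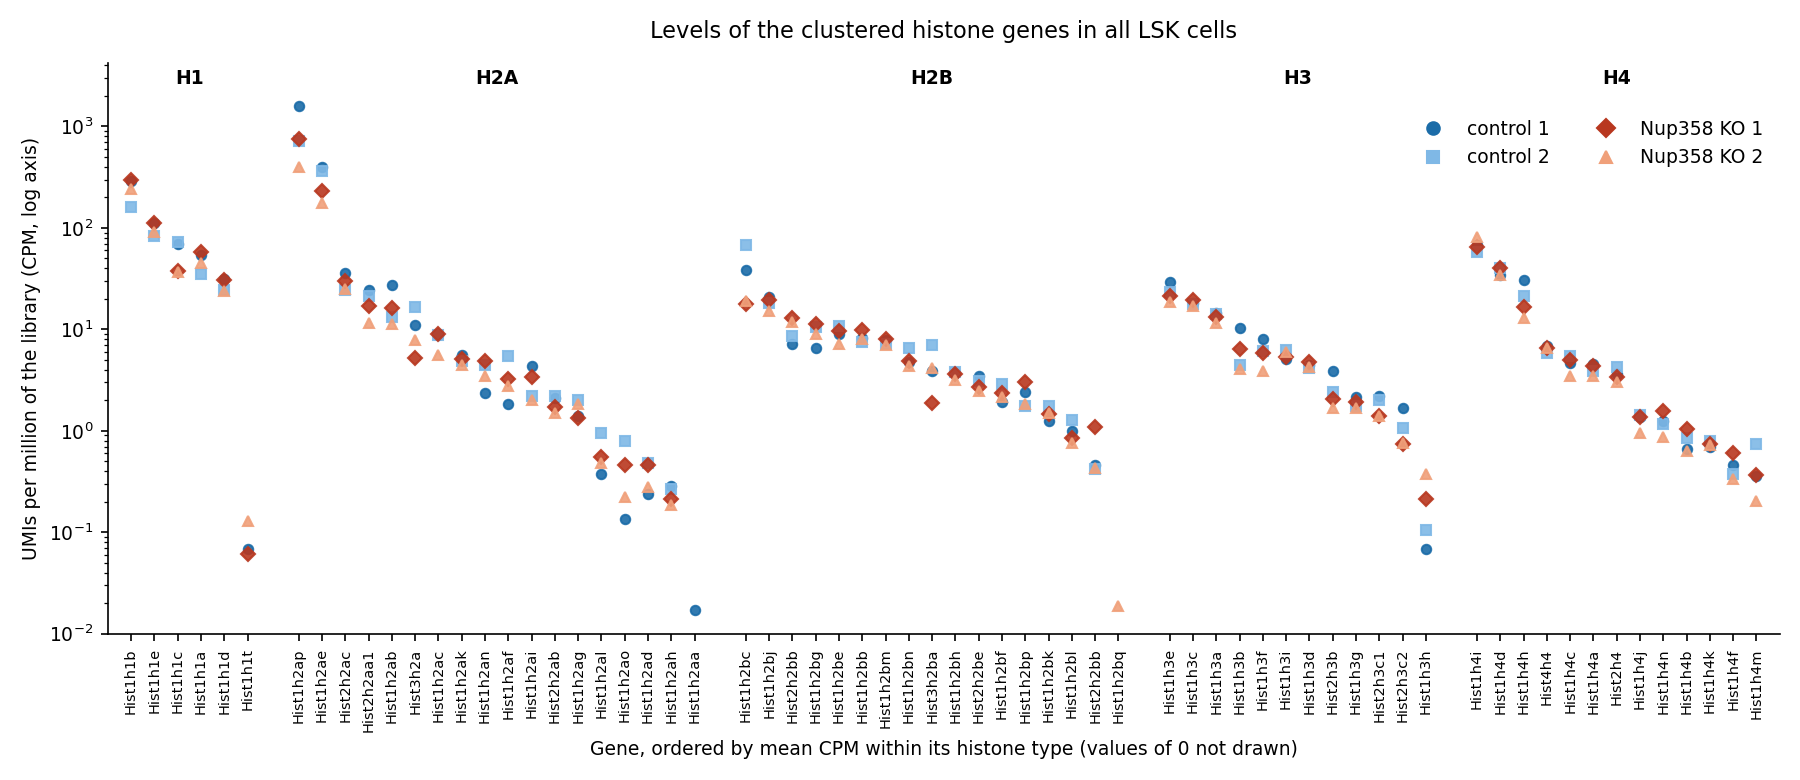
Level of each member with a UMI in all LSK cells, in CPM on a log axis, with 1 point per library and members ordered by mean level within each histone type. Hist1h2ap reaches 1609 CPM in control 1, and most members of the core types H2A, H2B, H3 and H4 lie below 10 CPM.

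The A content before the loop varied between members. Of 43 members with the motif and a UMI in the cells used, Hist1h2ap and Hist1h2ao had 12 A bases among the 12 before the loop, Hist1h2ae had 11, and the other 40 had at most 9. The highest mean level among those 40 was 99.5 CPM (Hist1h1e) and their median was 6.40 CPM, against 869 CPM for Hist1h2ap and 291 CPM for Hist1h2ae. Hist1h2ao was at only 0.403 CPM. Members without the motif are left out of this contrast, among them Hist1h1b (mean 249 CPM), Hist1h1a (48.2 CPM) and Hist1h2bc (35.9 CPM). Hist1h2ae also carries the AATAAA signal near the end of its model. Spearman's rho between A content and mean level over the 43 members was 0.41, given as a description, since members share libraries, sequence and priming.

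**Figure D2:**
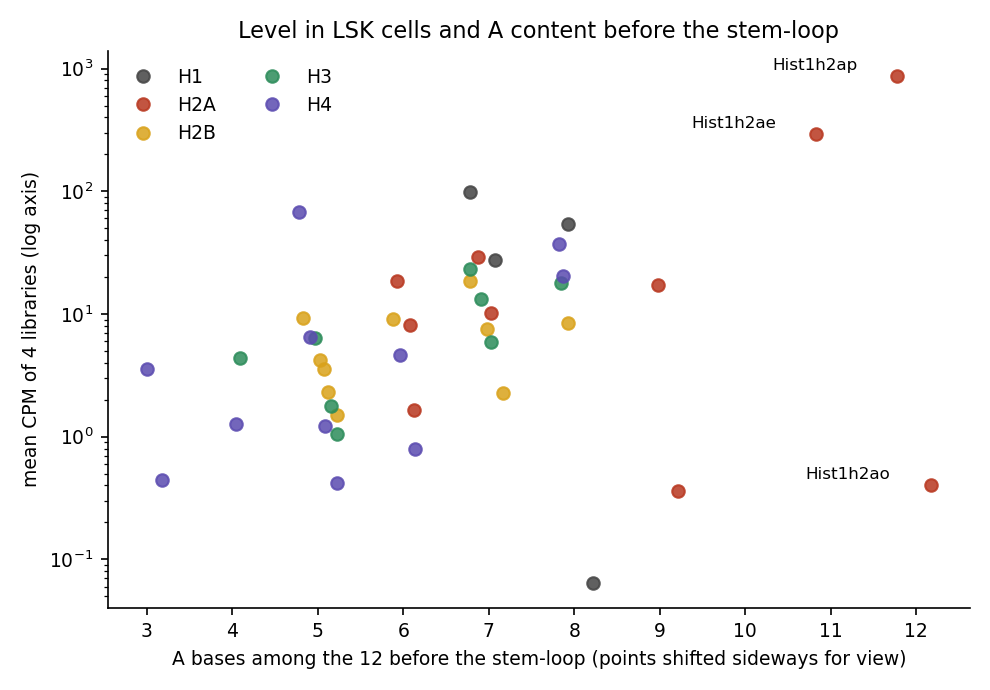
Mean CPM over the 4 libraries (log axis) against the number of A bases among the 12 before the stem-loop, with 1 point per member that has the motif, coloured by histone type. Hist1h2ap and Hist1h2ae lie at the upper right, and Hist1h2ao shares the A content of Hist1h2ap at 0.403 CPM.

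Most members tested rose from G1-scored to G2/M-scored cells (40 of 50), so 3 promoters are shown, for the leading H1 gene, the leading H4 gene and Hist1h2ae. They are RefSeq sequence of GRCm38.p6, 300 bases around the gene start, 5′ to 3′ on the gene's strand, with motif matches in capitals.
Hist1h1b, chr13:21780576-21780875, minus strand: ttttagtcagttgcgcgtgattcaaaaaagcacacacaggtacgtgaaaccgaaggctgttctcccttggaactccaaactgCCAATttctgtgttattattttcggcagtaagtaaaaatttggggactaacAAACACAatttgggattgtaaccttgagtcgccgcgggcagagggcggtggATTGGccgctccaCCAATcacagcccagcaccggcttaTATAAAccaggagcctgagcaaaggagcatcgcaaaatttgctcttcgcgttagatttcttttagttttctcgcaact
Hist1h4i, chr13:22041313-22041612, minus strand: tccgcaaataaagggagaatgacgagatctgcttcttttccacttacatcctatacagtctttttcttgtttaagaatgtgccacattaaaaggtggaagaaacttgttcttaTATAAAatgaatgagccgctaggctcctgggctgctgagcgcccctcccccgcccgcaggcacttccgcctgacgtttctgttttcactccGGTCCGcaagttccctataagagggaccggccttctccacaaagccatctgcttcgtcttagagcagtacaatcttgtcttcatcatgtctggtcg
Hist1h2ae, chr13:23571171-23571470, minus strand: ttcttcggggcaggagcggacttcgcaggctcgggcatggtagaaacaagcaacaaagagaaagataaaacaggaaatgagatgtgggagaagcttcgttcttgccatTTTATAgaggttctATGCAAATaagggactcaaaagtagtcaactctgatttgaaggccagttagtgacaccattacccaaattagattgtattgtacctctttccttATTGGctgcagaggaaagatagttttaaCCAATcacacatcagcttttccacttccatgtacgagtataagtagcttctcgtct
The capitals mark matches, on either strand, to 5 short motifs known from histone promoters. These are the TATA box (letters TATAAA), the CCAAT box that many promoters share, the H1 box (letters AAACACA) typical of linker histone genes, the octamer (letters ATGCAAAT), and the H4 element, searched here by its letters GGTCCG. Promoters were found for 62 member genes and the motifs were chosen after the sequences had been seen. CCAAT stood in 53 of 62, among them all 6 of H1, 18 of H2A, 16 of H2B and 10 of H3 but 3 of 12 for H4, against 41.1% of all 27025 promoters of this length. GGTCCG stood in 11 of 12 H4 promoters and 2 others (9.44% of all promoters). The octamer stood in 7 of 18 H2A and 7 of 16 H2B promoters and in none of the other types (1.97% of all), and AAACACA in 5 of 6 H1 promoters (8.22% of all). The Hist1h2ae window also holds the start of the H2B gene Hist1h2bg, at chr13:23571396 on the plus strand. The TATA match in that window reads on the plus strand. Matches in windows shared by an H2A and an H2B gene can thus count for both types. TATAAA stood in 35 of the 62 (15.7% of all). Letters were matched at any position of the window, so a TATAAA match need not be a working TATA box.

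To ask how the members vary with the cell cycle, each cell was called G1, S or G2/M from lists of 39 G1/S and 53 G2/M genes, none of them a member. In all, 984 of 13480 scored cells (7.30%) lay within 0.02 score units of a cut. G1-scored cells made up 31.0%, 53.6%, 23.2% and 13.4% of control 1, control 2, KO 1 and KO 2, and G2/M-scored cells 43.8%, 25.6%, 50.4% and 60.7%. Summed over all members, the level in S-scored cells was 2.84, 1.72, 2.28 and 2.21 times that in G1-scored cells. In G2/M-scored cells it was 4.40, 5.28, 2.54 and 2.47 times the G1 level. It was thus lowest in G1 and highest in G2/M in each of the 4 libraries.

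In S-scored against G1-scored cells, with library as a block, 33 members rose and 2 fell of 46 tested (edgeR quasi-likelihood test, Benjamini-Hochberg adjusted p under 0.05, as for every call below), where 33.8% of all genes tested were called and 17% rose. The median member change was 1.16 on the log2 scale, against -0.04 over all genes. All 8 H3 members tested rose, as did 9 of 12 for H2A, 7 of 13 for H2B, 5 of 8 for H4 and 4 of 5 for H1. The 5 largest changes were in Hist1h1b (2.46 ± 0.25, SE), Hist1h3b (2.43 ± 0.26), Hist1h2ab (2.35 ± 0.31), Hist1h2an (2.15 ± 0.30) and Hist1h3c (2.07 ± 0.34), whose adjusted p in edgeR ran from 0.000869 to 0.00344. Hist1h2ap rose by 1.52 ± 0.10 and Hist1h2ae by 1.37 ± 0.11.

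The members that fell in S were Hist1h2bc, a core H2B gene, by 1.25 ± 0.26 on the log2 scale (edgeR adjusted p = 0.00838), and the linker gene Hist1h1c, by 0.67 ± 0.18 (edgeR adjusted p = 0.0206). Without control 1 both calls were lost, at edgeR adjusted p = 0.0751 and 0.113, and without control 2 that of Hist1h1c, at 0.0573. Hist1h2bc was at 72.5 and 86.4 CPM in G1-scored and 23.4 and 20.0 CPM in S-scored control cells. In KO it was at 15.5 and 17.3 CPM in G1 and 14.1 and 11.4 CPM in S. The next lowest changes, in Hist3h2a (-0.75 ± 0.25), Hist3h2ba (-0.53 ± 0.32) and Hist2h2be (-0.19 ± 0.24), were not called. Of these 5 members, all but Hist1h2bc carry the AATAAA signal near the end of a model. Over the 11 tested members with that signal the median change was 0.16, with 4 up and 1 down, and over the 35 without it 1.24, with 29 up and 1 down.

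In G2/M-scored against G1-scored cells, 40 of 50 members tested rose and none fell (43 rose and none fell at an unadjusted p under 0.05, and 40 and 0 were called by DESeq2), where 38.3% of all genes were called and 18.7% rose. The median member change was 1.87, against -0.04 over all genes. All 10 H3 members and 12 of 13 H2A members rose. The largest changes were in Hist1h2ab (3.67 ± 0.43), Hist1h3b (3.30 ± 0.37), Hist1h2af (3.21 ± 0.73), Hist1h3c (3.07 ± 0.48) and Hist1h1b (2.97 ± 0.54). The smallest, none called, were in Hist1h2bc (-0.16 ± 0.23), Hist4h4 (0.16 ± 0.27), Hist1h1c (0.17 ± 0.10), Hist2h2be (0.27 ± 0.27) and Hist3h2a (0.27 ± 0.19). Members with the AATAAA signal again changed less, with a median of 0.72 over 11 tested and 2.03 over the 39 without it. The counts fell to 17 in S and 23 in G2/M without control 1, where 14.9% and 17.9% of all genes were called. In G2/M the count was 27 without control 2.

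**Figure D3:**
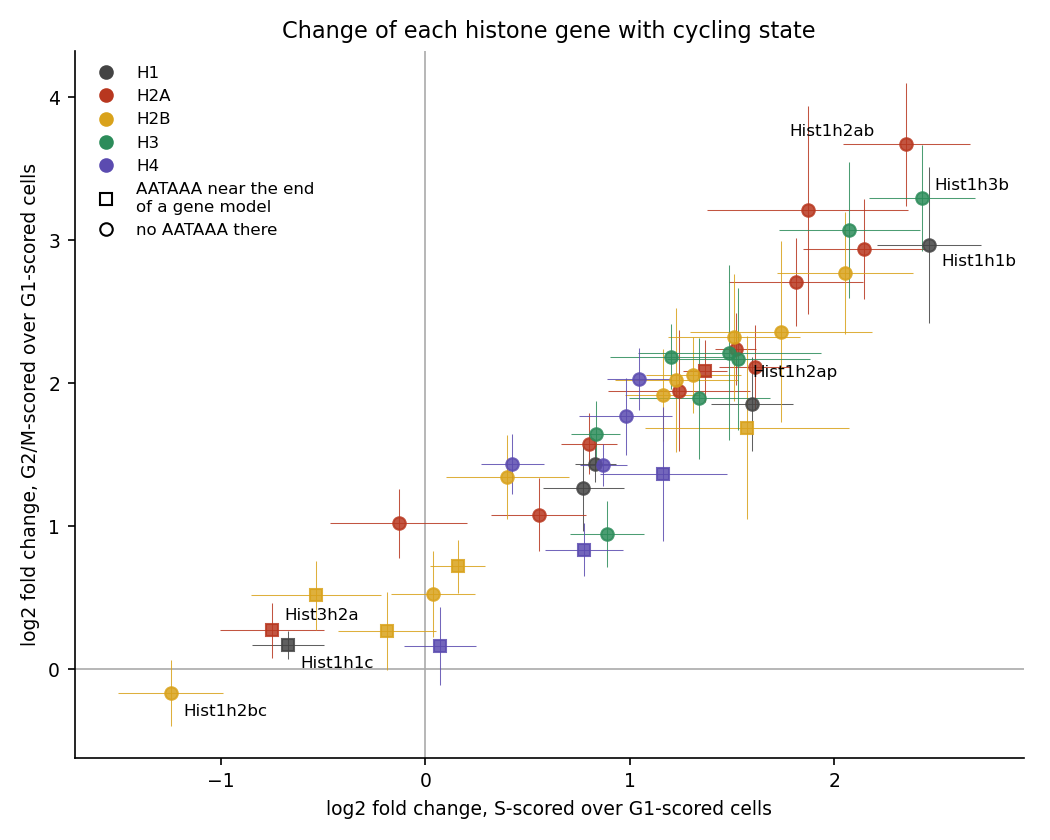
Log2 fold change of each member tested in both comparisons, S over G1 (horizontal) and G2/M over G1 (vertical), with standard errors, coloured by histone type, squares marking members with AATAAA near the end of a model. Hist1h2bc, Hist1h1c and Hist3h2a lie at the lower left, and Hist1h1b, Hist1h3b and Hist1h2ab at the upper right.

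G2/M-scored cells were also above S-scored cells, in a comparison added after the data were seen. Here 34 of 55 members rose (29.2% of all genes called, 15.3% higher), with a median of 0.55. The summed level in G2/M was 1.55, 3.08, 1.11 and 1.12 times that in S in control 1, control 2, KO 1 and KO 2, so the step was steeper in both controls. The sum over H1 genes was the exception, at 0.97 times the S level in KO 1. G1/S list genes stood at 3021 to 3262 CPM in G2/M-scored cells, against 1438 to 2605 CPM in G1-scored and 4565 to 5074 CPM in S-scored cells, so cells called G2/M carried more G1/S RNA than cells called G1.

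**Figure D4:**
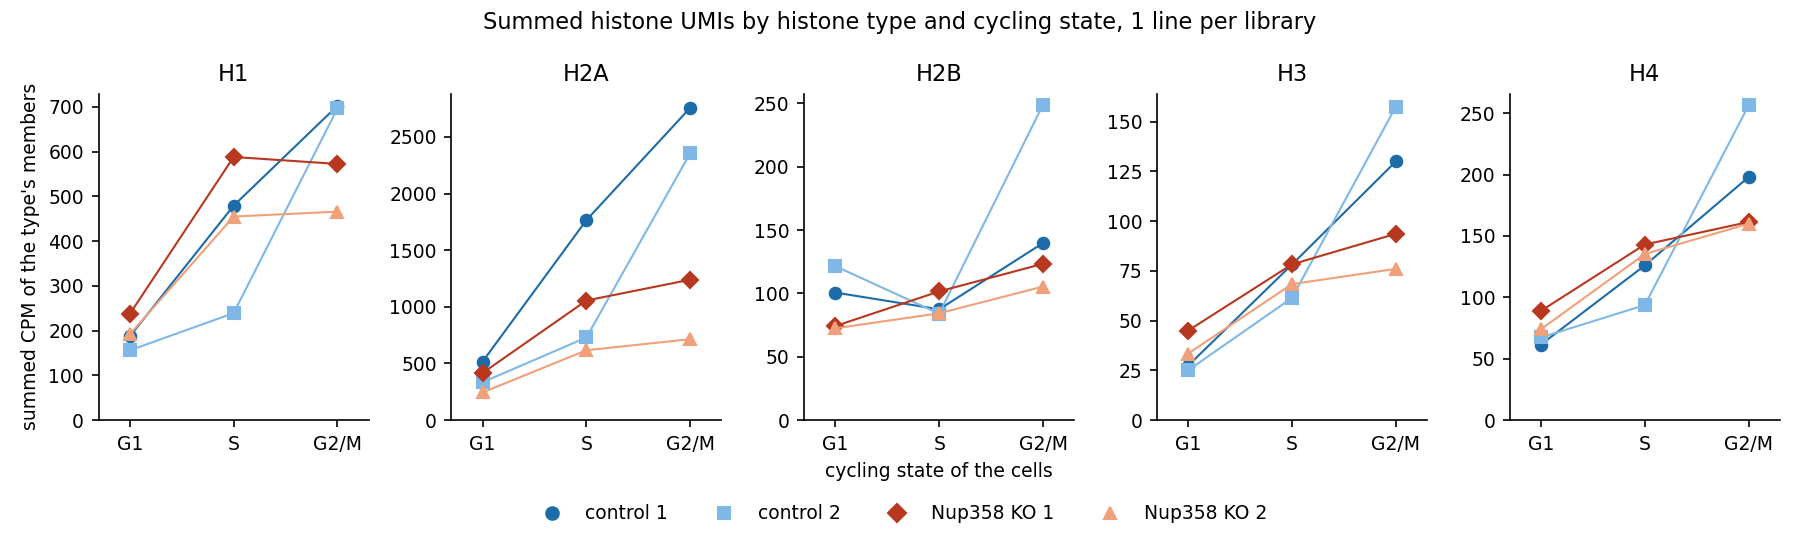
Summed CPM of the members of each histone type (vertical, linear from 0) in G1-, S- and G2/M-scored cells, with 1 line per library. H2A reaches 2758 and 2357 CPM in G2/M-scored control cells and 1240 and 714 CPM in KO, while the S-scored values of the groups overlap for every type but H4.

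Genes that switch on and process histone RNA were followed as well. Of 34 supply genes (activation, 3′ processing and chaperones), 24 of 33 tested rose in S and none fell, and 17 of 33 rose in G2/M, with medians of 0.44 and 0.28. Slbp, which binds the stem-loop, rose by 0.97 ± 0.11 in S (edgeR adjusted p = 0.000927) and was not called in G2/M (0.41 ± 0.15). Npat rose by 0.32 ± 0.09 in S. Among the replacement histones, H2afx, whose RNA is known to come in both a stem-loop and a polyadenylated form, rose by 2.35 ± 0.17 in G2/M and H2afz by 1.07 ± 0.16. H3f3a and H3f3b were at 0.06 ± 0.04 and 0.05 ± 0.04 there and were not called.

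The comparison of KO with control cells asks how the LSK population differed between the genotypes. In all LSK cells the summed member level was 3070, 1946, 1958 and 1414 CPM in control 1, control 2, KO 1 and KO 2, a log2 difference of -0.57 with overlapping groups. By type, both KO libraries lay below both controls for H2A (2132 and 1183 against 1084 and 656 CPM), H2B (121 and 159 against 111 and 98.1 CPM) and H3 (99.8 and 83.2 against 83.1 and 71.0 CPM). H1 and H4 overlapped. Within H2B, Hist1h2bc stood at 38.7 and 68.1 against 17.9 and 18.9 CPM, while the next gene, Hist1h2bj, overlapped (20.8 and 18.0 against 19.6 and 15.2 CPM). The H3 sums of control 2 and KO 1 were nearly equal. In such sums, fewer expressing cells and less RNA per cell cannot be told apart. Without Hist1h2ap and Hist1h2ae the member sum was 1065, 871, 973 and 838 CPM, and the groups then overlapped.

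Of 62 members tested in all LSK cells, 3 fell and none rose (10 and 1 at an unadjusted p under 0.05, 5 and 0 by DESeq2), where 3.44% of all genes tested were called, 1.37% higher and 2.07% lower. Hist1h1c fell to 0.511-fold (log2 -0.97 ± 0.14, edgeR adjusted p = 0.0193), Hist1h2bc to 0.336-fold (-1.58 ± 0.28, adjusted p = 0.0345) and Hist1h2ae to 0.518-fold (-0.95 ± 0.18, adjusted p = 0.0406). Hist1h2ap was not called (-1.04 ± 0.42, edgeR adjusted p = 0.214). The median over the members was -0.22, against -0.01 over all genes. Both KO libraries lay below both controls for 16 of 52 members with a mean of at least 1 CPM, a share of 30.8%, where 24.5% of all such genes did. Fits with 1 library left out keep 1 library in a group, and the calls moved with it. Of the 3 genes named, Hist1h1c lost its call without KO 1 or KO 2 and Hist1h2ae without KO 2. The member median was -0.24 without control 1 and -0.17 without control 2.

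None of the 34 supply genes or 11 replacement histone genes was called between KO and control in all LSK cells by edgeR. At an unadjusted p under 0.05, 4 supply genes were higher and 2 replacement histones lower, and DESeq2 called 1 higher and 1 lower. Slbp lay at 125, 139, 141 and 137 CPM and Npat at 28.3, 22.2, 31.5 and 27.5 CPM. H2afx differed by -0.51 ± 0.22, H2afz by 0.28 ± 0.20, H3f3a by -0.41 ± 0.23 and H3f3b by -0.38 ± 0.18 on the log2 scale.

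Members were lower in KO among G2/M-scored cells. Of 61 tested, 59 had a negative change and 7 were called, all lower, where 3.92% of all genes were called, 1.42% higher and 2.5% lower. The median member change was -0.70, against 0.00 over all genes. Both KO libraries lay below both controls for 44 of 54 members (81.5%), where 22% of all genes did, and for none the other way round. The sum over all members was 3929 and 3717 CPM in controls and 2190 and 1521 CPM in KO, and each of the 5 histone types was lower without overlap. Without Hist1h2ap and Hist1h2ae it was 1335 and 1554 against 1065 and 894 CPM.

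The G2/M calls took in every core type but H2B, and H1. Hist1h4h, a core H4 gene, was at 41.2 and 38.1 CPM in controls and 19.5 and 14.2 CPM in KO, a fall to 0.407-fold (-1.30 ± 0.18, edgeR adjusted p = 0.0138). Hist1h2ae was at 505 and 729 against 261 and 189 CPM (-1.51 ± 0.25, edgeR adjusted p = 0.0239). Hist1h1c was at 76.7 and 89.9 against 42.9 and 37.9 CPM (-1.10 ± 0.16, edgeR adjusted p = 0.0159). These 3 genes showed no overlap between the groups. The H3 genes Hist1h3e (-0.94 ± 0.15) and Hist1h3f (-1.15 ± 0.24) and the H2A genes Hist2h2aa1 (-1.18 ± 0.23) and Hist1h2ab (-1.10 ± 0.22) were the others called. Hist1h2ap, at 2089 and 1433 against 864 and 438 CPM, fell short of the threshold (-1.49 ± 0.33, edgeR adjusted p = 0.0532).

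The G2/M calls moved with single libraries. The member median was -1.05 without control 1 and -0.45 without control 2. Hist1h4h and Hist1h2ae kept their call without any 1 library, and the other 5 lost it without KO 2. With the top 5% of cells by UMIs left out 2 members were called, both lower, where 0.815% of all genes were called. G2/M-scored cells with no lineage name gave 13 calls, all lower, of 56 members tested (4.1% of all genes called, 1.56% higher and 2.54% lower), in an alternative added after the data were seen. In G2/M-scored cells the summed G2/M list itself stood at 10461 and 10453 CPM in controls and 8790 and 9591 CPM in KO, and its part in the histone difference was not tested. No supply gene was called there by edgeR or DESeq2, 5 being higher and none lower at an unadjusted p under 0.05, and of the replacement histones H2afx (-0.89 ± 0.15, edgeR adjusted p = 0.0263) and H2afj (-0.88 ± 0.16, edgeR adjusted p = 0.0353) fell.

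G1-scored cells went another way. The member sum overlapped (892 and 703 against 861 and 615 CPM), while 6 of 35 members tested rose and 3 fell, where 9.48% of all genes were called, 4.8% higher and 4.68% lower. The median was 0.38, against -0.01 over all genes. Both KO libraries lay above both controls for 19 of 42 members (45.2%), where 27.8% of all genes did.

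The genes that rose in G1-scored KO cells were 2 of H1, 3 of H2B and 1 of H3. Hist1h1b, an H1 gene, was at 37.1 and 9.98 CPM in controls and 97.7 and 66.6 CPM in KO (1.79 ± 0.43, edgeR adjusted p = 0.0333). Hist1h3c, an H3 gene, went from 1.51 and 1.40 to 7.74 and 4.85 CPM (2.09 ± 0.41, edgeR adjusted p = 0.0161) and the H2B gene Hist1h2bb from 1.21 and 1.26 to 6.29 and 5.10 CPM (2.18 ± 0.41, edgeR adjusted p = 0.0132). Each was higher in both KO libraries than in both controls. Hist1h1a (1.32 ± 0.23), Hist1h2bj (1.60 ± 0.31) and Hist2h2bb (1.44 ± 0.37) were the others.

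The genes that fell were Hist1h2bc, at 72.5 and 86.4 CPM in controls and 15.5 and 17.3 CPM in KO (-2.29 ± 0.20, edgeR adjusted p = 0.000439), Hist1h1c (-1.19 ± 0.19, edgeR adjusted p = 0.00686) and Hist3h2a (-1.78 ± 0.38, edgeR adjusted p = 0.0215). The G1 calls moved with single libraries, and only that of Hist1h2bc was left without KO 1. The member median was 0.23 without KO 1 and 0.71 without KO 2. G1-scored KO cells also stood higher for the lists that set the state: 2341 and 2605 against 1936 and 1438 CPM for G1/S genes and 3409 and 3100 against 2229 and 1792 CPM for G2/M genes. Summed plasma cell markers stood at 2235 and 3022 CPM in KO against 170 and 569 CPM in controls, lymphoid markers at 644 and 649 against 67.4 and 155 CPM, and the part of the state lists in the higher histone levels was not tested. Among G1-scored cells with no lineage name alone, added after the data were seen, 8 of 27 members rose and 4 fell. There 15.7% of all genes were called, 8.32% higher and 7.4% lower, and the 9 genes above were all among the member calls. Control and KO cells still differed in cluster. The unnamed clusters 1, 4 and 10, G1-scored in 70.8%, 82.3% and 80.2% of scored cells, had 2, 4 and 3 stem cell markers 2-fold higher. They held 1186, 1056 and 7 cells of control 1 and 3, 4 and 580 of control 2. KO 1 had 4, 15 and 2 cells in them, and KO 2 had 3, 3 and 11. Cluster 1 also had 4 neutrophil and 4 basophil and mast cell markers 2-fold higher. Unnamed clusters 6, 12 and 14 each had 3 stem cell markers 2-fold higher. Of their scored cells 48.4%, 1.30% and 44.7% were G1-scored. They held 302, 14 and 5 cells of KO 1 and 44, 472 and 415 of KO 2. Control 1 had 468, 2 and 4 cells in them, and control 2 had 3, 51 and 102. The part of this in the G1 differences was not tested. Of the supply genes, Asf1b, Casp8ap2, Nap1l1 and Nasp rose in G1-scored KO cells, and of the 11 replacement histones 1 rose and 3 fell, H2afz rising by 0.78 ± 0.19 (edgeR adjusted p = 0.0335) and H1f0 (-1.09 ± 0.21), H1fx (-0.95 ± 0.17) and H2afj (-0.63 ± 0.17) falling.

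S-scored cells showed little between the groups. Of 52 members tested 1 fell, Hist1h2bc (-0.88 ± 0.17, edgeR adjusted p = 0.0388), at 23.4 and 20.0 CPM in controls and 14.1 and 11.4 CPM in KO, where 3.44% of all genes were called, 0.955% higher and 2.49% lower. Its call was lost without KO 1 (edgeR adjusted p = 0.145) or KO 2 (edgeR adjusted p = 0.426). Leaving out control 1, control 2, KO 1 or KO 2 moved the calls, with member medians of 0.18, 0.10, -0.07 and 0.23. With all libraries the median was 0.15, against -0.01 over all genes. In both KO libraries 17 of 51 members (33.3%) were higher, where 33.1% of all genes were.

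**Figure D5:**
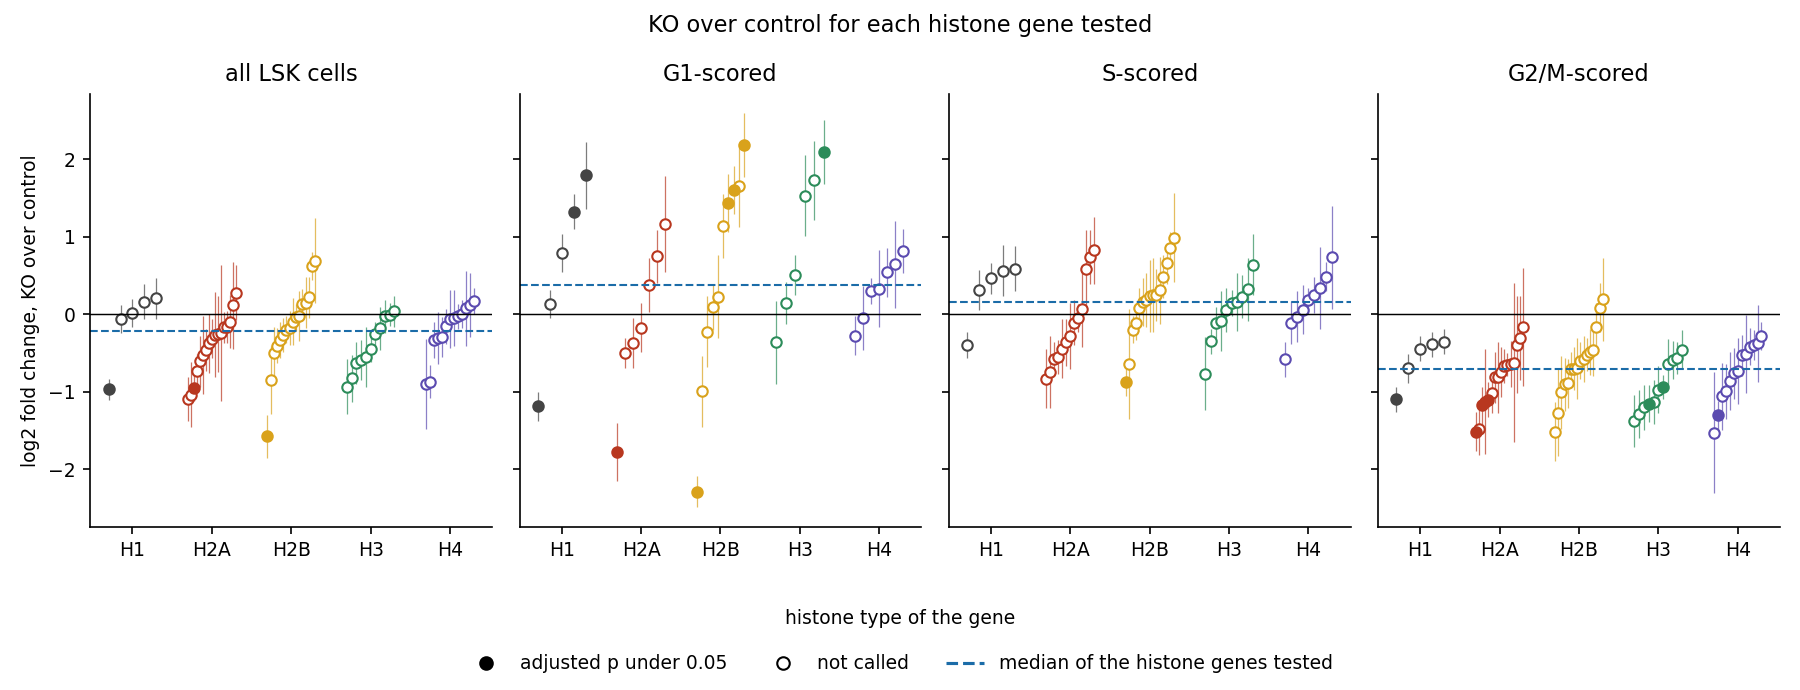
Log2 fold change of KO over control with its standard error for each member tested, by histone type, in all LSK cells and in each cycling state. Filled points passed an adjusted p of 0.05 and the dashed line is the median of the members tested, which is 0.38 in G1-scored, 0.15 in S-scored and -0.70 in G2/M-scored cells.

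The difference between states was tested as an interaction, with library as a block. Between S and G1, the KO effect differed for 12 of 50 members, lower in S for 10 and higher for 2, where 12.7% of all genes were called and 8.54% were lower. The largest in size among these 12 were Hist1h2bp (-2.65 ± 0.78), Hist1h3c (-1.93 ± 0.35) and Hist1h2bj (-1.77 ± 0.28). Hist1h2bp is a low member, with a mean of 2.28 CPM in all LSK cells. It did not pass the count filter for KO against control in G1-scored cells. The 2 with a higher effect in S were Hist1h2bc (1.35 ± 0.20) and Hist1h1c (0.75 ± 0.16). With G2/M in place of S, an alternative added after the data were seen, the KO effect was lower in G2/M for 29 of 52 members, with a median of -1.19, where 15.5% of all genes were called and 9.01% were lower. These comparisons share the G1-scored sums.

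Progenitor types were named from fixed marker lists in 26 clusters made without the member genes. A name also needed a mean log2 change of at least 2 over the list. Clusters 1, 5, 11, 13 and 15 had 3 or 4 neutrophil markers 2-fold higher but lower means, and stayed unnamed. So did cluster 8, with 3 megakaryocyte and erythrocyte markers 2-fold higher. Cells with no lineage name numbered 4445, 910, 1215 and 2542 in control 1, control 2, KO 1 and KO 2, neutrophil (N)-like cells 2562, 181, 47 and 33, megakaryocyte and erythrocyte (ME)-like cells 761, 86, 121 and 393, and lymphoid (L)-like cells 62, 23, 206 and 454. Most clusters came mainly from 1 library. N-like cells of control 1 lay mostly in clusters 3, 7 and 9 and those of control 2 mostly in cluster 21. Clusters 3, 7, 9 and 21 also had 5, 4, 4 and 5 monocyte markers 2-fold higher. Of basophil and mast cell markers they had 1, 4, 2 and 4. N-like cluster 26, led by S100a9 and S100a8 with Kit at 7.22 CPM, held 14, 8, 5 and 7 cells of control 1, control 2, KO 1 and KO 2. The part of these cells in the N-like levels was not tested. ME-like cells of control 1 lay mostly in clusters 16 and 18, those of control 2 and KO 2 in cluster 17 and those of KO 1 in cluster 19.

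The summed member level was highest in ME-like cells. It was 2965, 1939, 1965 and 1383 CPM in cells with no lineage name and 3023, 1710, 1937 and 1436 CPM in N-like cells. ME-like cells held 4019, 3142, 2025 and 1617 CPM in control 1, control 2, KO 1 and KO 2, which was 1.36, 1.62, 1.03 and 1.17 times the level in cells with no lineage name. L-like cells held 3232, 621, 1731 and 1447 CPM. They took in a cluster led by Igll1 and Vpreb1 and one led by Cd79a and Ly6d with Kit at 0 CPM. The latter had all 5 mature B cell markers 2-fold higher. Clusters 22 and 25, also L-like, had all 7 plasmacytoid dendritic cell markers 2-fold higher, and cluster 24 all 5 plasma cell markers.

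Against cells with no lineage name, 17 of 50 members rose in ME-like cells and none fell (19 and none at an unadjusted p under 0.05, 14 and 0 by DESeq2), where 29.7% of all genes were called and 14.4% rose. They included 4 of 5 H1 and 6 of 13 H2A genes, and the 4 with the smallest p were Hist1h2ab (0.74), Hist1h1c (0.51), Hist1h1d (0.52) and Hist1h2ae (0.48), while the largest change was in Hist1h2af (0.98). Within G2/M-scored cells alone 8 rose and 1 fell, where 25.6% of all genes were called. The count was 9 without control 1 (19.2% of all genes called) and 1 with copied barcodes kept (17.9%). It was 3 with members allowed in clustering (2 higher and 1 lower, 23.6%) and 0 when library was not a block (11.8%). ME-like cells were G2/M-scored in 48.1% and 41.0% of control cells, against 34.3% and 22.7% of control cells with no lineage name. In KO 1 and KO 2 these shares were 52.6% and 68.2%, against 52.4% and 60.1%.

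N-like cells had 11 of 56 members higher and 2 lower, where 38.1% of all genes were called and 20% rose. Hist1h3c (0.64), Hist1h2bj (0.60) and Hist1h3e (0.51) were among those higher, and Hist3h2ba (-2.37) and Hist3h2a (-0.53) were the lower ones. The higher calls rested on control 1: without it 1 member was called, lower, where 16.3% of all genes were called. Without control 2, KO 1 and KO 2 the counts were 6, 8 and 20, where 20%, 34.5% and 46% of all genes were called. None was higher and 1 lower with the top 5% of cells by UMIs left out (11.2% of all genes). With members allowed in clustering none was higher and 4 lower (34%). Within G2/M-scored cells alone 7 were called, all lower (28.6% of all genes called), among them Hist3h2ba (-2.81), Hist1h2ae (-0.42), Hist1h1a (-0.47) and Hist1h2ap (-0.29). In control 1, 58.1% of N-like cells were G2/M-scored and 34.3% of cells with no lineage name. L-like cells gave no member call (19.7% of all genes called) in edgeR or DESeq2, with 2 members higher and none lower at an unadjusted p under 0.05, and DESeq2 gave no adjusted p for 4 members.

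Between KO and control, the ME-like cells showed the most members without overlap of the types. Both KO libraries lay below both controls for 27 of 53 members (50.9%), where 23.6% of all genes did, and 3 of 42 members tested fell, where 0.903% of all genes were called. Hist1h2ae was at 585 and 665 CPM in controls and 260 and 203 CPM in KO (-1.44 ± 0.21, edgeR adjusted p = 0.0134). Hist1h1c was at 102 and 139 against 48.7 and 43.8 CPM (-1.37 ± 0.22, edgeR adjusted p = 0.0221). Hist1h2ap was at 2104 and 1164 against 719 and 466 CPM (-1.44 ± 0.28, edgeR adjusted p = 0.0488). In each the groups did not overlap. With copied barcodes kept all 3 lost their call, at edgeR adjusted p = 0.357, 0.132 and 0.53. The call of Hist1h2ap was also lost without KO 2. The member median was -0.92, -0.31 and -0.60 without control 1, control 2 and KO 1. The ME-like cells of the libraries lay in different clusters, as given above. Clusters 16 and 18 were led by Pf4 and clusters 17 and 19 by Car1. The summed member level was 1240, 1901, 6321 and 2090 CPM in clusters 16, 17, 18 and 19. Cluster 18, G2/M-scored in 85.8% of scored cells, held 281 cells of control 1 and 2, 7 and 5 of control 2, KO 1 and KO 2. The part of this in the ME-like differences was not tested.

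In cells with no lineage name, 5 of 59 members fell and none rose, where 8.84% of all genes were called, 3.27% higher and 5.57% lower. They were Hist1h1c (-1.08 ± 0.13), Hist1h2bc (-1.71 ± 0.26), Hist1h2ae (-0.88 ± 0.18), Hist1h4h (-0.82 ± 0.17) and Hist3h2a (-1.26 ± 0.31), with adjusted p in edgeR from 0.0101 to 0.0485. The member median was -0.09, and -0.12 and -0.03 without control 1 and control 2. Hist1h2ae and Hist1h4h lost their calls without KO 2. In N-like cells none of 40 members was called by edgeR or DESeq2 (0.0204% of all genes called), with 1 higher and 3 lower at an unadjusted p under 0.05, and KO held only 47 and 33 such cells. In L-like cells none of 19 was called by either tool (0.226% of all genes called), with 2 higher and 1 lower at an unadjusted p under 0.05.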

How the data were processed

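Per the labels and the study's methods, the authors aligned reads with Cell Ranger 3.1 to mm10 and deposited UMI counts per gene and cell barcode for 4 libraries, not normalized. Here, cells with at least 200 genes and at most 10% mitochondrial UMIs were used. A barcode was left out as copied where another library held the same sequence with at least 3 times the UMIs. No doublets were removed, but an alternative left out the top 5% of cells by UMIs. Intervals are not given, since tests run across libraries.

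Cells were thinned to 2000 UMIs for cycling scores (561 shallower cells were not scored) and clustered without member genes with scanpy 1.11.5 and leidenalg 0.10.2 (2000 variable genes, 10 components, 15 neighbours, resolution 1). A cluster was named where at least 3 markers of a list were 2-fold higher and the mean log2 change of the list was at least 2. Names are thus rebuilt and may differ from the study's. UMIs of all cells of a group were summed per library, which held 18846887 to 59033602 UMIs. Sums were tested with edgeR 4.0.16 (TMM, filterByExpr, quasi-likelihood, Benjamini-Hochberg over all genes) in R 4.3.3. State, type and interaction fits had library as a block. DESeq2 1.42.0 was an alternative. The test was run on simulated counts, drawn gene by gene from a common mean profile with the fitted dispersion. These counts had no differences in cell make-up between libraries, so that check does not cover them. No exact permutation test was used, since 2 against 2 libraries cannot go below p = 0.333.

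Named genes were the 3 members per type highest in level, members called between KO and control, the 5 largest and 5 smallest changes between states, members at the ends of the order of levels, and a fixed set of 6 related genes. Genes listed for the interaction, as neighbours in level, for progenitor types and as supply or marker genes were named after their values were seen. Members, lists and motifs were chosen with earlier results of these data known. Stem-loop sites were read from GENCODE vM21 and promoters from RefSeq. All member identifiers were matched, 2 of them by symbol.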

Additional observations from a re-analysis of the deposited data

Results flagged for a closer look

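The KO effect differed between S-scored and G1-scored cells for 12 of 50 members in the interaction test (edgeR quasi-likelihood test, Benjamini-Hochberg adjusted p under 0.05). Over all genes tested 12.7% were called. The difference on the log2 scale, the KO effect in S minus that in G1, was -1.22 for Hist1h1b, -1.02 for Hist1h1a and 0.75 for Hist1h1c among H1 genes. Among H2A genes it was -1.53 for Hist1h2ab and -0.74 for Hist2h2ac. Among H2B genes it was -1.77 for Hist1h2bj, -1.52 for Hist1h2bb, -2.65 for Hist1h2bp, -1.56 for Hist1h2bm and 1.35 for Hist1h2bc. Of these, Hist1h2bp had a mean of only 2.28 CPM in all LSK cells. Among H3 genes it was -1.93 for Hist1h3c and -0.86 for Hist1h3a. No H4 gene was called by edgeR or DESeq2. The calls moved with single libraries. The member median was -0.40, and -0.23, -0.70 and -0.30 without control 1, control 2 and KO 1. DESeq2 called 3 members (4.09% of all genes) and gave no adjusted p for 39.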

How the results depend on the processing

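Values are member calls at an adjusted p under 0.05, and percentages in brackets are the share of all genes called. Between KO and control in all LSK cells, 3 calls (3.44%) became 1 (1.5%) with the top 5% of cells by UMIs left out. They became 5 (6.87%) by DESeq2 and 11 (10.1%) with no filter on low counts. The same changes gave 0 (3.22%), 0 (3.44%) and 7 (7.43%) in S-scored cells (1 call). In G2/M-scored cells (7 calls) they gave 2 (0.815%), 12 (5.6%) and 29 (9.04%), and cells with no lineage name alone gave 13 (4.1%). No filter gave 15 (11%) in G1-scored cells (9 calls) and 11 (14.8%) in cells with no lineage name (5). It gave 2 (1.9%) in N-like (0), 8 (3.24%) in ME-like (3) and 1 (1.69%) in L-like cells (0). With members allowed in clustering the counts were 3 (5.93%) in cells with no lineage name and 1 (0.586%) in ME-like cells. ME-like cells gave 1 (0.434%) with copied barcodes kept and 7 (3.4%) without the top 5%.

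The deviations of libraries with the same replicate number had r = -0.151 over all LSK cells and -0.0855, -0.0853 and -0.0968 in G1, S and G2/M. Some clusters still joined libraries of the same number. Cluster 5 held 136 cells of control 2 and 817 of KO 2, against 1 of control 1 and 0 of KO 1. Cluster 6 held 468 of control 1 and 302 of KO 1, against 3 of control 2 and 44 of KO 2. Clusters 11, 12, 14 and 17 held 23, 51, 102 and 75 cells of control 2 and 543, 472, 415 and 307 of KO 2. Control 1 had 0, 2, 4 and 0 cells in them, and KO 1 had 1, 14, 5 and 3. Clusters 8 and 15 held 111 and 94 cells of control 1 and 496 and 253 of KO 1. Control 2 had 3 and 2 cells in them, and KO 2 had 148 and 54. Most of the other clusters came mainly from 1 library. Whether libraries of the same number shared a batch was not tested. With the replicate number as a block the counts were 8 (9.12%) in all LSK, 5 (7.26%) in S-scored and 22 (8.67%) in G2/M-scored cells. They were 9 (10.3%) in unnamed and 2 (2.18%) in N-like cells. Numbers crossed between the groups, added after the data were seen, gave 7 (12.6%) in all LSK cells.

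For S against G1 (35 calls), no library block gave 18 (6.24%). For N-like cells (13 calls) the count was 22 (44.5%) with copied barcodes kept, 1 (11.2%) without the top 5% and 4 (34%) with members in clustering. It was 5 (27.5%) by DESeq2, 6 (11.3%) without the library block and 7 (28.6%) in G2/M-scored cells alone. For ME-like cells (17 calls) it was 1 (17.9%) with copied barcodes kept and 3 (23.6%) with members in clustering. It was 0 (11.8%) there with no library block and 9 (25.6%) in G2/M-scored cells alone. L-like cells (0 calls) gave 1 with copied barcodes kept (23.8%) or no filter (16.8%). The interaction (12 calls) gave 3 (4.09%) by DESeq2 and 29 (15.5%) with G2/M in place of S. The causes were not tested.

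Leaving out 1 library gave 3 to 12 calls in all LSK, 1 to 13 in G1-scored, 0 to 9 in S-scored, 5 to 31 in G2/M-scored, 4 to 13 in unnamed, 0 to 1 in N-like, 3 to 8 in ME-like and 0 to 2 in L-like cells between KO and control. It gave 17 to 35 for S against G1, 23 to 40 for G2/M against G1, 1 to 20 for N-like, 9 to 16 for ME-like and 0 to 1 for L-like cells against unnamed cells, and 6 to 8 for the interaction. In G2/M against G1, 3 uncalled log2 changes reversed: leaving out 1 library gave -0.30 to 0.21 for Hist1h2bc and -0.088 to 0.43 for Hist4h4, the reversals being without control 1, and no thinning gave -0.068 for Hist1h1c. Of 755 values of named genes under alternatives, 618 kept direction and call, 126 lost the call, 8 gained it and 3 reversed. With 2 pooled libraries a group and few cells in some groups, depth limits the low members.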
